A study of Mus musculus with 10 samples.

Results

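The genes described here are 10 genes of the circadian clock, measured in the distal colorectum of mice: Dbp, Tef, Per1, Per2, Per3, Nr1d1, Nr1d2, Ciart, Arntl and Nfil3. They were taken as every probe set whose platform gene symbol was one of these names, which gave 22 of 45037 probe sets and 10 of 18193 genes. The first 8 are called Dbp-phase genes here because their transcripts peak in the same part of the day in many tissues, and Arntl and Nfil3 are called opposite-phase genes because theirs peak when the others are low. The genes were chosen on their log2 differences between irradiated and unirradiated tissue, so those differences are given as values without a test. Genotype differences, and genes outside the 10, were tested.

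Total RNA was measured on 10 Affymetrix arrays, 1 per tissue sample, and the labels call the replicates biological. All mice were C57BL/6J, kept in an SPF environment with 12 h of light and 12 h of dark. The genotypes were Pdgfc+/+, called wild type here, and Pdgfc-/-, called knockout. Pdgfc encodes a secreted growth factor for fibroblasts and other mesenchymal cells. Unirradiated tissue came from 2 wild-type and 2 knockout samples. Irradiated tissue came from 3 wild-type and 3 knockout samples given a local γ-ray dose of 25 Gy (2.14 Gy/min) under chloral hydrate, and was collected 8 weeks later, about 1 cm above the anus. Whether the unirradiated mice were also anaesthetised, the age of the mice, how the Pdgfc allele was made and the hour at which tissue was collected are not given in the sources used here. Clock transcripts swing with the hour of the day, and the part of collection time in any difference below was not tested.

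In the clock, the transcription factors ARNTL (also called BMAL1) and CLOCK bind E-box sequences and switch on the Per and Cry genes, whose proteins accumulate and shut ARNTL and CLOCK off again. ARNTL and CLOCK also switch on Nr1d1 and Nr1d2, nuclear receptors that repress Arntl and Nfil3 through ROR elements, the sites at which ROR receptors activate. Dbp and Tef encode activators of a further sequence, the D-box, at which the NFIL3 protein acts as a repressor. In the gut the clock runs in epithelial, muscle and immune cells, and it times transport, barrier and cell cycle genes.

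The promoters of these genes were searched for the sequences that this loop uses. The windows run from 250 bases before to 50 after a transcription start, 300 bases in all, from RefSeq on GRCm38.p6, and the start base is counted as 0. The table held 9 of the 10 genes, all but Per2. For each gene with the E-box CACGTG, the D-box TTANGTAA or the ROR half-site with its preceding T, TAGGTCA, 1 window that holds it is printed here, because these show which of the 10 genes carry each of the loop's sequences near a start. The window at the second Tef start, which also holds an E-box, is not printed. Ciart lies at chr3:95882179-95882478 on the minus strand, Per3 at chr4:151044616-151044915 on the minus strand, Per1, at its first start, at chr11:69098699-69098998 on the plus strand and Tef, at its first start, at chr15:81802423-81802722 on the plus strand. Arntl, at its second start, lies at chr7:113207261-113207560 on the plus strand and Nfil3 at chr13:52980990-52981289 on the minus strand. Each window is written 5′ to 3′ along its gene, and capitals mark the matches to these motifs and to the shorter half-site AGGTCA, on either strand. In Per1 the second run of capitals is that half-site on the opposite strand.
Ciart: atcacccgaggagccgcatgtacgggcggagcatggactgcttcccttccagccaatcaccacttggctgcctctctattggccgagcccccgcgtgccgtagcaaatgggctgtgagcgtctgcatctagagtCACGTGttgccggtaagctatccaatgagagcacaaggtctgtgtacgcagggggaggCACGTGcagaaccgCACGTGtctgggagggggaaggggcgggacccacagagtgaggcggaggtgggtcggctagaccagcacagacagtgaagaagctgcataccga
Per1: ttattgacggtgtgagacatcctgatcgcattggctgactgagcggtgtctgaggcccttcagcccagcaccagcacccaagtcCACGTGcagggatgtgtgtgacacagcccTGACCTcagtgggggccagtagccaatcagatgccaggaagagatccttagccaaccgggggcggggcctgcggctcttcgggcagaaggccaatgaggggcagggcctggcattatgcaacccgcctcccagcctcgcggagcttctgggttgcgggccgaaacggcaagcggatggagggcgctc
Tef: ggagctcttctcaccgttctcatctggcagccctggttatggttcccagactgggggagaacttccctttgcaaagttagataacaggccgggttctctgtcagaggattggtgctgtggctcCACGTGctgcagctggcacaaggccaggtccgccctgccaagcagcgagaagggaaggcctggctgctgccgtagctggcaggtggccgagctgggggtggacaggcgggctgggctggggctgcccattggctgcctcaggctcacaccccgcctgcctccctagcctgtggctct
Per3: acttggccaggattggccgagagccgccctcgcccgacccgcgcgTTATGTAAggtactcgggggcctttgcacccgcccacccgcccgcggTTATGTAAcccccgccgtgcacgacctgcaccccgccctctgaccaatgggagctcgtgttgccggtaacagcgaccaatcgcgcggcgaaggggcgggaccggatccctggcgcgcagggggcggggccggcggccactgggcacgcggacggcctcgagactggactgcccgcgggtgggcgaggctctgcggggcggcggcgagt
Arntl: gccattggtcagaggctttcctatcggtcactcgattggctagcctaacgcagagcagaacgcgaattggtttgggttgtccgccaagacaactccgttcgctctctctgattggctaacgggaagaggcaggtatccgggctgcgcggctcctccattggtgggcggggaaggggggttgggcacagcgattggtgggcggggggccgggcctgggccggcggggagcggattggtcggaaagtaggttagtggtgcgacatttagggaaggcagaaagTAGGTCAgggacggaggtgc
Nfil3: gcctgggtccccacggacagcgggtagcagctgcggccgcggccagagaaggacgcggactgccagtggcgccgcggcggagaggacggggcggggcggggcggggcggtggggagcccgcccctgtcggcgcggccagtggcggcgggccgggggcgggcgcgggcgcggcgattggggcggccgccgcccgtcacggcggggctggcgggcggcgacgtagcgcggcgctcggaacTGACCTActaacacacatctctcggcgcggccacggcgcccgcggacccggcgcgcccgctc

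The Ciart window held 3 E-boxes, from -116 to -111, from -58 to -53 and from -44 to -39. Per1 held 1 at its first listed start, and Tef held 1 at each of its 2 starts. The E-box was thus found in 3 of the 9 genes, against 8.09% of the 27025 genes and 7.15% of the 32851 windows in the table. Per3 alone of the 9 held the D-box, with 2 matches from -205 to -198 and from -158 to -151, against 2.72% of all genes. TAGGTCA stood in Arntl from 30 to 36 and in Nfil3 from -12 to -6, the latter on the opposite strand. It was found in both opposite-phase genes and in 0 of the 7 Dbp-phase genes with a window, against 2.97% of all genes. The shorter half-site AGGTCA, which every TAGGTCA contains, was found in these 2 genes and in Per1 and Nr1d2, against 18.13% of all genes. Among 19 other clock genes with a window, 3 held the E-box, 2 the D-box, 2 AGGTCA and 0 TAGGTCA. A match is a match of letters, and windows without one say nothing of sites elsewhere.

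**Figure D1:**
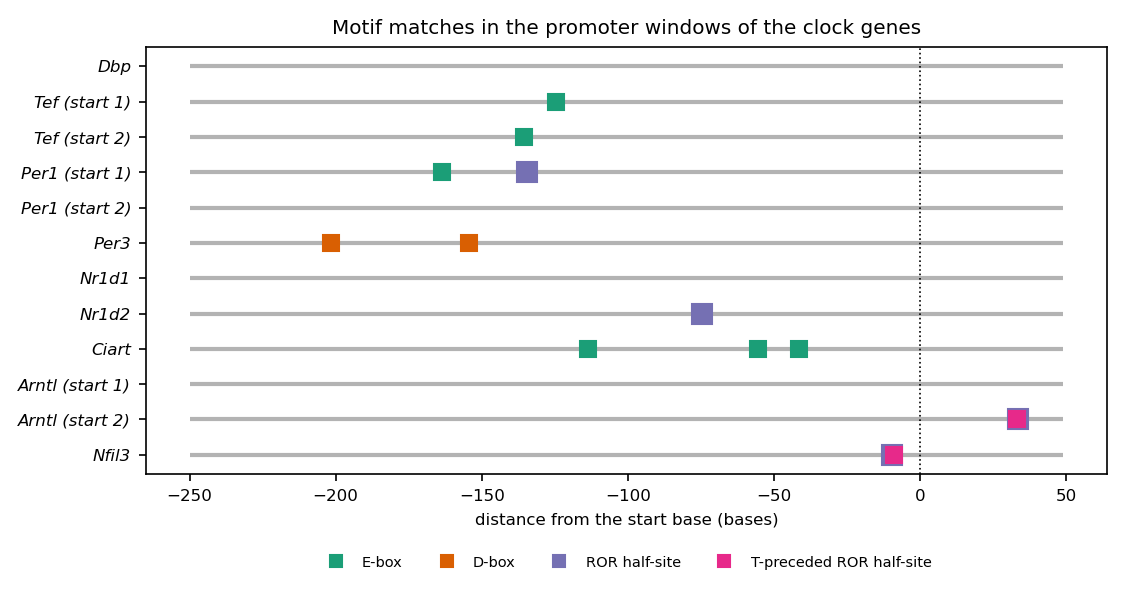
Positions of the motif matches in the promoter windows of 9 clock genes, with the distance from the start base in bases on the horizontal axis and 1 line per window. The 3 E-boxes of Ciart, the 2 D-boxes of Per3 and the TAGGTCA of Arntl and Nfil3 can be seen; where the squares overlap, TAGGTCA contains AGGTCA.

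Several features of the series touch every result below. Array medians ran from 6.64 to 7.18 on the log2 scale, and the trimmed mean of the linear signals was 500 on every array. Pdgfc itself differed between knockout and wild type by -1.23 ± 0.40 (SE) log2 units without irradiation (limma, adjusted p = 0.16) and by -1.82 ± 0.32 after it (adjusted p = 0.69), neither past the threshold of 0.05. Xist, an RNA of the inactive X chromosome, read 13.48 to 14.18 on 4 arrays and 6.19 to 7.27 on the other 6. The female pattern was carried by the 3 wild-type arrays with irradiation and by replicate 1 of the irradiated knockout. In wild type, irradiation and sex pattern therefore cannot be told apart. The Gapdh 3′ probe set minus the 5′ one, a measure of RNA quality, was -0.54 to -0.35 in irradiated and -0.32 to 0.02 in unirradiated samples. The same measure for actin overlapped, at 0.44 to 0.58 in irradiated and 0.35 to 0.66 in unirradiated samples.

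Signals of markers of several cell types also differed between unirradiated and irradiated tissue. Averaged over 11 tested markers, absorptive colonocytes read 13.00 to 13.49 on the unirradiated and 10.93 to 12.21 on the irradiated arrays, and 7 of 11 fell in wild type and 8 of 11 in knockout (limma, adjusted p under 0.05). Fibroblast markers went from 9.06 to 9.35 up to 11.27 to 11.92, and macrophage markers from 7.16 to 8.56 up to 10.35 to 11.39, with 10 of 10 higher in each genotype for both. Squamous epithelium markers went from 4.72 to 5.48 up to 8.54 to 12.93, with 8 of 13 higher in wild type and 13 of 13 in knockout, and 10 of 13 lay below the array median on all unirradiated arrays. T and NK cell markers, B and plasma cell markers and adipocyte markers were each higher for 5 of 7 in wild type, and for 6, 5 and 5 of 7 in knockout, where 4, 3 and 3 of the 7 lay below the array median on all unirradiated arrays. Of the fibroblast and of the macrophage markers 1 each did so too. Markers of that kind entered the test only through the irradiated arrays, where they are high, so nothing is read from their calls. Of 8 smooth muscle markers, 0 passed in either genotype, and their mean was 12.95 to 13.34 without and 12.94 to 13.61 after irradiation. Striated muscle markers read 4.02 to 4.18 in unirradiated wild type, 8.36 to 8.68 in unirradiated knockout and 5.93 to 12.22 after irradiation. In bulk tissue, fewer cells of a type and less RNA per cell cannot be told apart, and the part of these cell types in the clock gene values was not tested.

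On the probe set that represents each gene, all 8 Dbp-phase genes lay lower after irradiation in both genotypes, and Arntl and Nfil3 lay higher. The median difference of the 8 was -1.68 log2 units in wild type, a 3.20-fold lower signal, and -2.08 in knockout, a 4.22-fold lower signal. Over all 12568 genes tested the median was 0.07 in wild type and 0.01 in knockout. For 8 of the 8, every irradiated array lay below every unirradiated array, which held for 10% of all genes, and for 2 of the 2 opposite-phase genes every irradiated array lay above, which held for 15.4% of all genes. These counts come from the comparison on which the genes were chosen, so nothing is read from them. All 10 genes passed the filter on dim genes, which asks for 2 or more arrays above their array median, but Ciart did so on its 4 unirradiated arrays alone and Nfil3 on its 6 irradiated arrays alone.

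**Figure D2:**
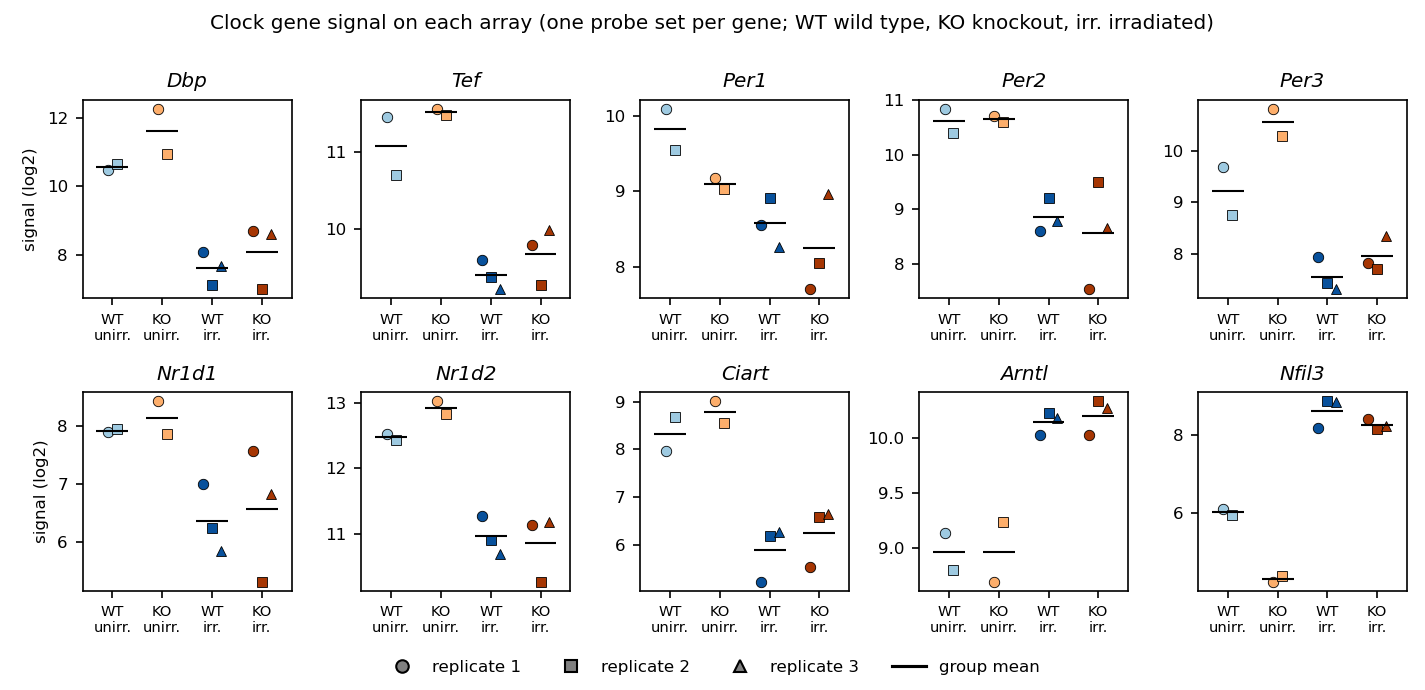
Log2 signal of the 10 clock genes on each of the 10 arrays, 1 panel per gene with its own vertical axis; WT is wild type, KO knockout, unirr. unirradiated and irr. irradiated, symbols mark the replicate number and lines the group means. The 8 Dbp-phase genes are lower on all 6 irradiated arrays than on all 4 unirradiated ones, with a gap of 1.78 for Dbp and 0.05 for Per1, and Arntl and Nfil3 are higher.

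Among the D-box factors, the activator Dbp had the largest irradiation difference of the 8 Dbp-phase genes in each genotype. Dbp read 10.47 and 10.66 in unirradiated wild type, 12.27 and 10.96 in unirradiated knockout, 8.07, 7.11 and 7.67 in irradiated wild type, and 8.69, 6.99 and 8.60 in irradiated knockout. The irradiated arrays lay at least 1.78 below the lowest unirradiated one, and replicate 1 of unirradiated knockout stood highest. The difference was -2.95 ± 0.54 (SE) in wild type, 7.7-fold lower, and -3.52 ± 0.54 in knockout, 11.5-fold lower.

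Tef, a second D-box activator, read 11.45 and 10.70 in unirradiated wild type, 11.56 and 11.48 in unirradiated knockout, 9.59, 9.37 and 9.21 in irradiated wild type, and 9.78, 9.26 and 9.98 in irradiated knockout. The groups did not overlap, and the 6 irradiated arrays fell within 0.77 of each other. The difference was -1.69 ± 0.26 in wild type and -1.85 ± 0.26 in knockout.

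Nfil3, the D-box repressor, ran the other way. It read 6.12 and 5.95 in unirradiated wild type, 4.25 and 4.38 in unirradiated knockout, 8.19, 8.87 and 8.84 in irradiated wild type, and 8.42, 8.15 and 8.23 in irradiated knockout. The 6 irradiated arrays of both genotypes lay close together, and the 4 unirradiated ones separated by genotype. The difference was 2.60 ± 0.29 in wild type, 6.05-fold higher, and 3.95 ± 0.29 in knockout, 15.5-fold higher. All 4 unirradiated arrays lay below their array median, where these signals spread widely, and with 64 added to the linear signals the knockout difference was 2.15.

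Of the repressors of the loop, the 3 Per genes lay lower by different amounts. Per1 read 10.09 and 9.54 in unirradiated wild type, 9.18 and 9.03 in unirradiated knockout, 8.56, 8.91 and 8.26 in irradiated wild type, and 7.71, 8.05 and 8.97 in irradiated knockout. Its highest irradiated array was only 0.05 below its lowest unirradiated one. The difference was -1.24 ± 0.35 in wild type and -0.86 ± 0.35 in knockout, the smallest of the 8 in each genotype.

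Per2 read 10.84 and 10.39 in unirradiated wild type, 10.70 and 10.59 in unirradiated knockout, 8.60, 9.20 and 8.79 in irradiated wild type, and 7.53, 9.49 and 8.66 in irradiated knockout. The 4 unirradiated arrays lay within 0.45 of each other, while irradiated knockout spread over 1.96. The difference was -1.75 ± 0.45 in wild type and -2.08 ± 0.45 in knockout.

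Per3 read 9.69 and 8.75 in unirradiated wild type, 10.81 and 10.28 in unirradiated knockout, 7.93, 7.42 and 7.31 in irradiated wild type, and 7.82, 7.70 and 8.35 in irradiated knockout. Both unirradiated knockout arrays stood above both wild-type ones, and the gap to the irradiated arrays was 0.40. The difference was -1.67 ± 0.33 in wild type and -2.59 ± 0.33 in knockout.

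Ciart, whose protein (also called CHRONO) represses ARNTL and CLOCK, read 7.97 and 8.68 in unirradiated wild type, 9.01 and 8.55 in unirradiated knockout, 5.23, 6.19 and 6.27 in irradiated wild type, and 5.53, 6.59 and 6.64 in irradiated knockout. The gap between the irradiated and unirradiated arrays was 1.34. The difference was -2.43 ± 0.46 in wild type and -2.52 ± 0.46 in knockout. All 6 irradiated arrays lay below their array median, so the size of the difference is uncertain.

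The nuclear receptor genes stood in the same direction. Nr1d1 (REV-ERBα) read 7.90 and 7.94 in unirradiated wild type, 8.43 and 7.86 in unirradiated knockout, 6.99, 6.23 and 5.84 in irradiated wild type, and 7.56, 5.31 and 6.82 in irradiated knockout. The gap was 0.30, and irradiated knockout spread over 2.26. The difference was -1.57 ± 0.60 in wild type and -1.58 ± 0.60 in knockout, and it was -0.95 in knockout without replicate 2 of the irradiated arrays. Only 1 of the 6 irradiated arrays lay above its array median.

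Nr1d2 (REV-ERBβ) read 12.53 and 12.43 in unirradiated wild type, 13.03 and 12.83 in unirradiated knockout, 11.28, 10.91 and 10.69 in irradiated wild type, and 11.13, 10.27 and 11.18 in irradiated knockout. It was above the array median on all 10 arrays, and the gap was 1.15. The difference was -1.52 ± 0.27 in wild type and -2.07 ± 0.27 in knockout.

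Arntl, the activator of the loop and a target of the REV-ERB repressors, read 9.14 and 8.80 in unirradiated wild type, 8.70 and 9.24 in unirradiated knockout, 10.02, 10.22 and 10.18 in irradiated wild type, and 10.02, 10.33 and 10.27 in irradiated knockout. The 6 irradiated arrays lay within 0.31 of each other and 0.77 above the highest unirradiated one. The difference was 1.17 ± 0.20 in wild type, 2.26-fold higher, and 1.23 ± 0.20 in knockout, 2.35-fold higher.

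The other probe sets of the same genes gave a further reading of the same samples for 6 of the 10. All 19 probe sets of the Dbp-phase genes had lower means after irradiation in both genotypes, and on 17 of them no irradiated array reached an unirradiated one. Over all genes, with 1 probe set each, the latter held for 10%, and the share over all probe sets was not computed. Since the genes were chosen on this comparison, nothing is read from the counts in this paragraph. The second probe set of Dbp gave -2.84 in wild type and -3.58 in knockout. The 3 of Tef ranged from -1.69 to -1.25 in wild type and from -2.08 to -1.85 in knockout, and the 3 of Per2 from -1.77 to -1.21 and from -2.08 to -1.70. The second of Nr1d2 gave -0.82 and -1.62. Of the 6 of Per3, 4 did not overlap, and the other two, above the array median on 3 and 0 of the 10 arrays, did overlap, with -1.52 and -0.01 in wild type and -0.84 and -1.0 in knockout.

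For Arntl the probe sets disagreed. The second read 7.55 and 7.54 in unirradiated wild type, 7.36 and 7.08 in unirradiated knockout, 7.64, 7.43 and 7.34 in irradiated wild type, and 7.12, 7.80 and 8.04 in irradiated knockout. Here the groups overlapped, with differences of -0.07 in wild type and 0.43 in knockout, though it was above the array median on all 10 arrays. The mean of both Arntl probe sets differed by 0.55 in wild type and 0.83 in knockout, so the higher Arntl signal rests on 1 of 2 probe sets.

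**Figure D3:**
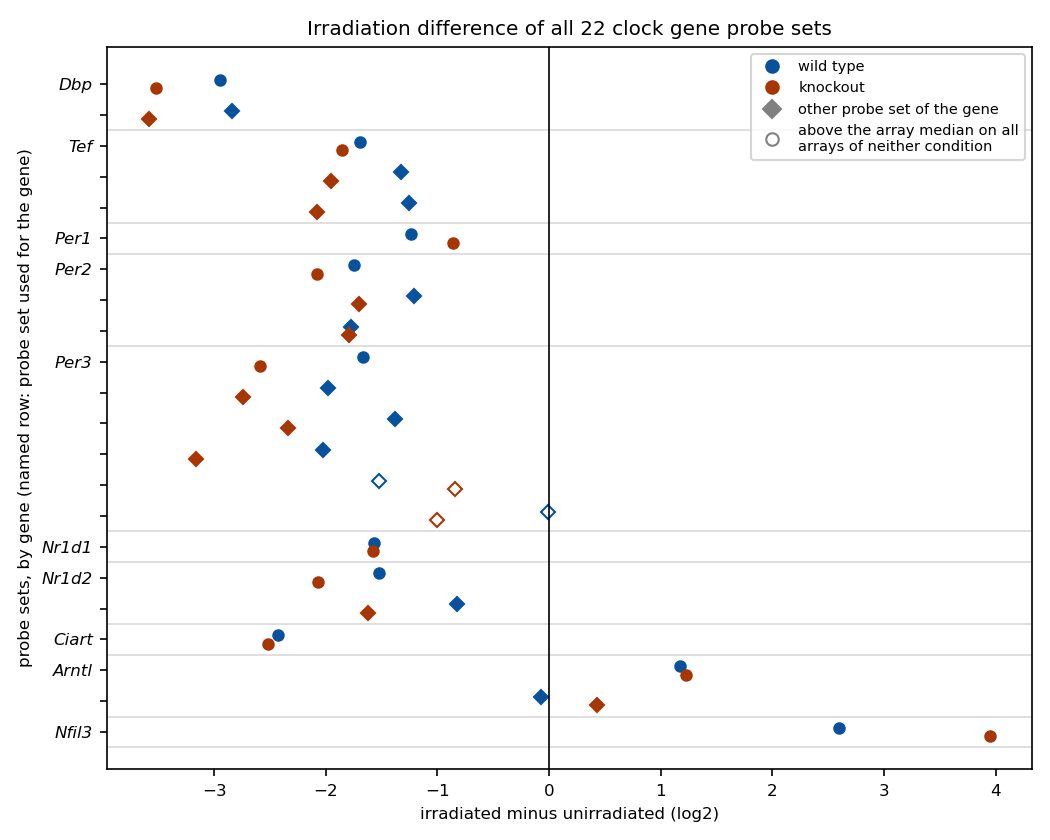
Difference of the group means, irradiated minus unirradiated in log2 units, for all 22 probe sets of the 10 genes, with the gene on the vertical axis; circles are the probe set used for the gene, diamonds its others, and open symbols those above the array median on all arrays of neither condition. The 19 Dbp-phase probe sets lie below 0 in both genotypes, and the second Arntl probe set lies near 0 in wild type, at -0.07.

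The balance of the loop can be put as 1 value per array, the mean of the 8 Dbp-phase genes minus the mean of Arntl and Nfil3. This was 2.49 and 2.51 in unirradiated wild type and 4.15 and 3.38 in unirradiated knockout. After irradiation it was -0.83, -1.38 and -1.50 in wild type and -1.0, -1.28 and -0.60 in knockout. As a mean over different probe sets it has no absolute meaning, and since the genes were chosen on irradiation its shift between conditions restates that choice. Within unirradiated tissue both knockout arrays lay above both wild-type arrays, and after irradiation the genotypes overlapped. Without irradiation the mean of Arntl and Nfil3 was 7.63 and 7.37 in wild type and 6.48 and 6.81 in knockout. Arntl differed by 0.0 there, so this part of the gap is the dim Nfil3 signal, whose size is not settled. The mean of the 8 Dbp-phase genes was 10.12 and 9.89 in wild type and 10.62 and 10.20 in knockout.

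Sex pattern was set against the same values. Among the male-pattern arrays alone, which compare 2 irradiated with 2 unirradiated knockout samples, the 8 Dbp-phase differences ran from -3.82 for Dbp to -0.59 for Per1, with a median of -2.12, and Nfil3 stood at 3.87. With sex pattern as a covariate, which for wild type rests on the 1 female-pattern knockout array, the wild-type differences were -3.84 for Dbp, -3.07 for Nr1d1, -1.35 for Ciart, -0.44 for Per1, -0.20 for Per2 and 2.37 for Nfil3. The direction of the 10 genes was kept, and the sizes for Nr1d1, Ciart, Per1 and Per2 moved by more than 1.5 times.

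Within the irradiated groups the Dbp-phase genes did not all move together from array to array, an ordering picked out after the values were seen. On the probe set used for each gene, Dbp was in both genotypes highest in replicate 1 and lowest in replicate 2, while Per2 was lowest in replicate 1 and highest in replicate 2. Dbp minus Per2 was -0.54, -2.09 and -1.11 in replicates 1, 2 and 3 of irradiated wild type and 1.16, -2.51 and -0.06 in irradiated knockout. Nr1d1 was highest and Ciart lowest in replicate 1 of both irradiated groups.

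In irradiated wild type other probe sets gave this order only in part. The second of Dbp read 7.25, 6.63 and 6.29 and was lowest in replicate 3, as was 1 of Per2, which read 7.26, 7.44 and 7.18, while the third of Per2 read 6.35, 6.77 and 6.76. The widest spread was in irradiated knockout, where Nr1d1 minus Per2 was 0.03, -4.19 and -1.85. The other 2 Per2 probe sets were also lowest in replicate 1 of irradiated knockout, at 5.88 and 5.79, and highest in replicate 2, at 7.84 and 7.33. Replicate 1 of irradiated knockout carried the female pattern and replicates 2 and 3 the male one, but all 3 irradiated wild-type arrays carried the female pattern. Replicate numbers name samples, and the labels give no pairing across the groups. In unirradiated knockout, on the probe set used for each gene, replicate 1 was higher than replicate 2 for all 8 Dbp-phase genes and lower for Arntl and Nfil3, by 1.31 for Dbp and by 0.08 to 0.56 for the other genes of the 8. Another probe set of Tef (8.04 and 8.18), both others of Per2 (8.63 and 8.96, 8.25 and 8.31) and the second of Arntl (7.36 and 7.08) ran the other way.

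**Figure D4:**
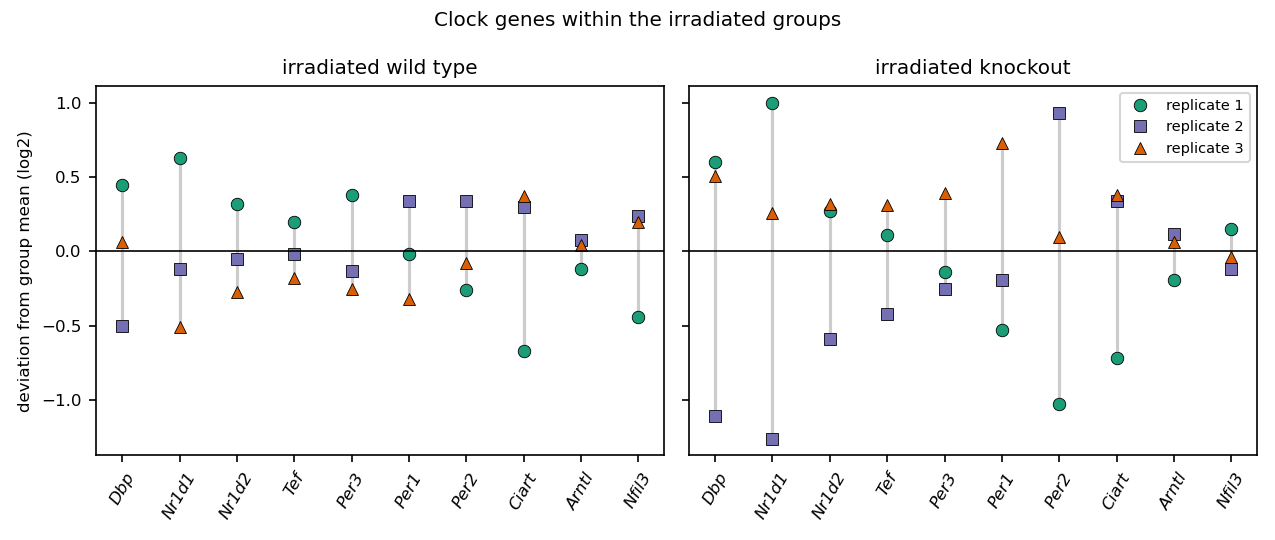
Deviation of each irradiated array from its group mean in log2 units for the probe set used for each of the 10 clock genes, with wild type on the left, knockout on the right and symbols for the replicate number. Dbp and Nr1d1 are highest in replicate 1 of both groups, where Per2 and Ciart are lowest.

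Genotype was compared without and after irradiation, as knockout minus wild type. Without irradiation limma called 1 of the 10 genes at an adjusted p under 0.05, against 1.23% of all genes. This was Nfil3, at -1.72 ± 0.32 (95% interval -2.44 to -1.0, adjusted p = 0.039), with both knockout arrays below both wild-type arrays. It held in 7 and was lost in 16 of 23 alternative settings, with adjusted p from 0.02 to 0.22. It held when the first irradiated wild-type array (adjusted p = 0.037) or the second irradiated knockout array (0.042) was left out, and was lost on leaving out any of the other 8 arrays (0.059 to 0.19). Nfil3 lay below the array median on all 4 arrays compared and entered the test only through the irradiated ones. With 64 added to the linear signal the difference was -0.63, so its size is not settled by these dim signals.

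Per3 was higher in unirradiated knockout by 1.33 ± 0.36 (interval 0.51 to 2.14), which did not pass after adjustment (limma, adjusted p = 0.11). Of its other probe sets, the 3 that exceeded the array median on each of the 4 arrays compared gave 0.88 to 1.09 (limma, adjusted p = 0.10 to 0.21 in a fit of every probe set). A further one, above it on 3 of the 4, gave -0.18 (adjusted p = 0.92). Dbp differed by 1.05 ± 0.59 (interval -0.27 to 2.37, adjusted p = 0.40) and Per1 by -0.71 ± 0.39 (interval -1.57 to 0.15, adjusted p = 0.38). At an unadjusted p under 0.05 in limma, 2 of the 10 passed, Nfil3 and Per3. Of all 12568 genes tested 2082 did so, and nothing is read from the count of 2. The median of the 8 Dbp-phase genes was 0.45, against 0.07 over all genes, with Per1 alone below 0.

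After irradiation 0 of the 10 genes differed by genotype in limma at an adjusted p under 0.05, where 0% of all genes were called. At an unadjusted p under 0.05, 0 of the 10 passed, against 500 of all 12568 genes tested. The 95% intervals were -0.60 to 1.55 for Dbp, -1.21 to 0.61 for Per2, -0.95 to 0.22 for Nfil3 and -0.33 to 0.45 for Arntl. The irradiation differences of the genotypes were also set against each other by the interaction, in which limma called 0 of the 10 genes, against 0.207% of all genes. At an unadjusted p under 0.05, 1 of the 10 passed, against 1311 of all 12568 genes tested, so nothing is read from this count. The gene that passed was Nfil3, at 1.35 ± 0.41 (interval 0.43 to 2.28, adjusted p = 0.30), and Per3 followed at -0.92 ± 0.47 (interval -1.97 to 0.13, adjusted p = 0.55). Nfil3 entered this test only through its irradiated arrays. Its genotype difference was -1.72 on the dim unirradiated arrays and -0.37 after irradiation, so nothing is read from its interaction.

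The rest of the clock was described through 25 other clock genes, of which 20 passed the filter. In wild type 1 of the 20 was higher after irradiation and 3 were lower (limma, adjusted p under 0.05), against 15.8% of all genes higher and 8.34% lower, and the list's median was -0.05. In knockout 2 were higher and 4 lower, against 14% of all genes higher and 9.5% lower, and the median was -0.16. Neither genotype comparison nor the interaction called any of the 20. Clock, the partner of ARNTL, differed by 0.13 and 0.10 in wild type and knockout, the repressor Cry1 by -0.03 and -0.16, and Hlf, a relative of Dbp and Tef, by -0.37 and -0.27, none past the threshold.

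Cry2, the second cryptochrome repressor, fell by 1.45 ± 0.40 in wild type (limma, adjusted p = 0.026) and fell by 1.57 ± 0.40 in knockout (adjusted p = 0.020). Rora, an activator at the ROR element, rose by 1.77 ± 0.45 in wild type (adjusted p = 0.021) and by 2.02 ± 0.45 in knockout (adjusted p = 0.013). Rora read 7.53 to 8.03 on the 4 unirradiated and 8.53 to 10.24 on the 6 irradiated arrays. Usp2, a deubiquitinase with a rhythmic transcript, fell by 1.15 ± 0.33 in wild type (adjusted p = 0.031) and differed by -0.83 in knockout (adjusted p = 0.092).

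Some calls were made in knockout alone, and the interaction passed for none of these genes. Ppargc1a, a coactivator of metabolic genes, fell by 1.80 ± 0.40 in knockout (adjusted p = 0.012) and differed by -0.07 in wild type. Sirt1, a deacetylase that acts on clock proteins, fell by 0.84 ± 0.19 in knockout (adjusted p = 0.013) and differed by 0.10 in wild type. Fbxw11, an F-box protein that marks PER proteins for degradation, fell by 0.50 ± 0.12 in knockout (adjusted p = 0.016) and differed by -0.20 in wild type. The remaining calls, named to complete these small counts after their values were seen, were the kinase gene Csnk1d in wild type (-0.69 ± 0.22, adjusted p = 0.049) and Npas2, a relative of Clock, in knockout (0.90 ± 0.29, adjusted p = 0.0498).

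These calls rest on few arrays, and the calls over all 12568 genes changed under the same settings. In knockout they went from 1763 higher and 1194 lower to 943 and 409 on the male-pattern arrays alone. In wild type they went from 1980 higher and 1048 lower to 15 and 1 with sex pattern as a covariate. Leaving out an unirradiated array of the genotype compared, or in wild type an irradiated one, also gave fewer calls over all genes. The knockout count of 6 was 0 without replicate 1 of unirradiated knockout, 2 without its replicate 2, and 2 on the male-pattern arrays alone. The wild-type count of 4 dropped to 1 when replicate 1 of unirradiated wild type was left out, and to 2, 1 and 2 for replicates 1, 2 and 3 of irradiated wild type, and was 0 with sex pattern as a covariate. Cry2 was lost in wild type without either unirradiated wild-type array (adjusted p = 0.057 to 0.17), and in knockout without either unirradiated knockout array or replicate 1 of irradiated knockout (0.063 to 0.12). Rora was lost in wild type without either unirradiated wild-type array or replicate 2 of irradiated wild type (0.063 to 0.10), and in knockout without either unirradiated knockout array (0.055 to 0.091). Usp2 was lost without replicate 1 of unirradiated wild type or any irradiated wild-type array (0.051 to 0.25), and its difference was -0.56 without that unirradiated array. Ppargc1a was lost without either unirradiated knockout array (0.068 to 0.074), Sirt1 and Fbxw11 without replicate 1 of unirradiated knockout (0.12 and 0.14), Fbxw11 also with the mean of its probe sets (-0.31, 0.23), Csnk1d without any of 7 arrays (0.064 to 0.32) and Npas2 without any of the 10 (0.055 to 0.24).

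**Figure D5:**
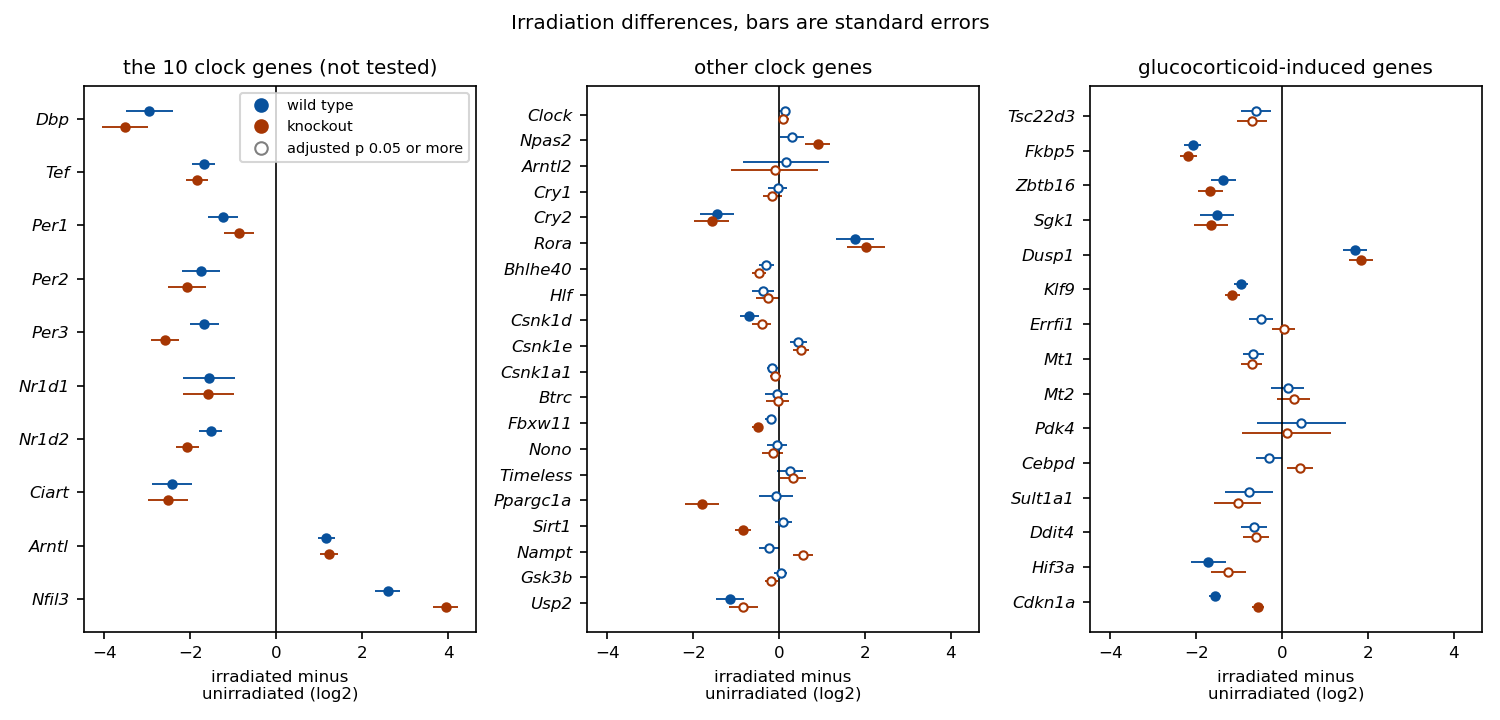
Irradiated minus unirradiated difference in log2 units with its standard error, wild type in blue and knockout in red, for the 10 clock genes, 20 other clock genes and 15 glucocorticoid-induced genes. Open symbols in the middle and right panels have an adjusted p of 0.05 or more, while the first panel shows no test; Cry2 and Fkbp5 are lower and Rora and Dusp1 higher in both genotypes.

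Clock output genes, a list of 25 genes under clock control in gut or liver, held 20 tested genes. In wild type 2 were higher and 6 lower, against 15.8% of all genes higher and 8.34% lower. In knockout 3 were higher and 9 lower, against 14% higher and 9.5% lower, so in both genotypes the higher calls were near or under the share of all genes. The medians were -0.34 and -0.62, against 0.07 and 0.01 over all genes. Of the knockout calls, Elovl3 exceeded the array median on irradiated arrays alone and Nr1i3 and Slc2a5 on unirradiated arrays alone, so nothing is read from these 3. Abcb1a, a drug efflux pump and a target of D-box factors, fell by 1.73 ± 0.17 in wild type (limma, adjusted p = 3.56e-04) and fell by 2.32 ± 0.17 in knockout (adjusted p = 8.59e-05). Wee1, a kinase that holds cells before mitosis, fell by 0.73 ± 0.18 (adjusted p = 0.018) and fell by 1.34 ± 0.18 (adjusted p = 0.0011). Slc9a3, a sodium-proton exchanger that is also one of the colonocyte markers above, fell by 4.64 ± 0.67 (adjusted p = 0.0017) and fell by 3.84 ± 0.67 (adjusted p = 0.0038).

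Slc5a1, the sodium-glucose transporter, fell by 0.83 ± 0.24 in wild type (limma, adjusted p = 0.032) and fell by 1.32 ± 0.24 in knockout (adjusted p = 0.0048). Cdkn1a, a cell cycle inhibitor and p53 target, fell by 1.55 ± 0.14 (adjusted p = 3.01e-04) and fell by 0.55 ± 0.14 (adjusted p = 0.018). Alas1, the first enzyme of heme synthesis, fell by 0.74 ± 0.14 in wild type (adjusted p = 0.0063) and differed by 0.06 in knockout (adjusted p = 0.80). Without irradiation 2 of the 20 were lower in knockout (limma, adjusted p under 0.05), against 1.23% of all genes called in either direction. These were Cdkn1a at -0.99 ± 0.15 (adjusted p = 0.0147) and Alas1 at -0.79 ± 0.16 (adjusted p = 0.0478). Both compare 2 arrays with 2, Alas1 lies close to the threshold, and their values under the alternative settings are not given here. After irradiation Cdkn1a differed by genotype by 0.02 and Alas1 by 0.01. The genotype comparison after irradiation and the interaction called 0 of the 20. With the mean of each gene's probe sets the wild-type calls of Alas1 (-0.43, adjusted p = 0.26) and Wee1 (-0.36, adjusted p = 0.17) were lost. Without 1 array, Wee1 was lost in wild type (replicate 1 unirradiated or replicate 2 irradiated, adjusted p = 0.061 to 0.11), Slc5a1 in wild type (either unirradiated array or replicate 1 or 2 irradiated, 0.059 to 0.19) and Cdkn1a in knockout (either unirradiated array, 0.063 to 0.12). The lower calls in knockout numbered 6 on the male-pattern arrays alone, where 409 of all 12568 genes were lower. In wild type they numbered 4 without replicate 2 of irradiated wild type, where 576 of all 12487 genes were lower. With sex pattern as a covariate Cdkn1a alone was lower in wild type, the only lower call among all 12568 genes. In each genotype the lower calls were also fewer without either unirradiated array of that genotype, as were those over all genes. The higher calls ran from 0 to 2 in wild type and from 0 to 3 in knockout when single arrays were left out.

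Glucocorticoids reset clocks in tissues outside the brain and rise and fall with the day, so 15 genes that they induce were counted as well; all were tested. In wild type 1 was higher and 6 lower, against 15.8% and 8.34% of all genes, and in knockout 1 was higher and 5 lower, against 14% and 9.5%. Cdkn1a, described above as a clock output gene, is counted among the lower calls of both lists in each genotype. The medians were -0.67 and -0.69. Fkbp5, a chaperone of the glucocorticoid receptor, fell by 2.08 ± 0.20 in wild type (limma, adjusted p = 3.62e-04) and fell by 2.18 ± 0.20 in knockout (adjusted p = 2.23e-04), but the mean of its probe sets differed by -1.50 and -1.48 (adjusted p = 0.15 for both). Klf9, a transcription factor, fell by 0.96 ± 0.17 (adjusted p = 0.0043) and fell by 1.16 ± 0.17 (adjusted p = 0.0018).

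Zbtb16, also a transcription factor, fell by 1.37 ± 0.29 in wild type (limma, adjusted p = 0.010) and fell by 1.67 ± 0.29 in knockout (adjusted p = 0.0042). Hif3a, a subunit of the hypoxia-inducible factors, fell by 1.72 ± 0.41 in wild type (adjusted p = 0.016) and differed by -1.25 in knockout (adjusted p = 0.052). Dusp1, a MAP kinase phosphatase, was the 1 gene of the list that rose, by 1.69 ± 0.28 (adjusted p = 0.0033) and 1.84 ± 0.28 (adjusted p = 0.0023), and it is also an immediate early gene. Zbtb16 and Hif3a were lost in wild type when its first unirradiated array was left out (adjusted p = 0.09 and 0.12), where 3 genes of the list were then lower. With sex pattern as a covariate Cdkn1a alone was lower in wild type, the only lower call among all 12568 genes. On the male-pattern arrays alone 5 were lower in knockout, where 409 of all 12568 genes were lower.

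Of 14 immediate early genes, which rise within minutes of a stimulus or of tissue handling, 2 were higher and 1 lower in wild type, against 15.8% and 8.34% of all genes, so the wild-type count was near that share. In knockout 6 were higher and 0 lower, against 14% and 9.5%. Egr2, higher in both, exceeded the array median on irradiated arrays alone. The higher count ran from 1 to 3 in wild type and from 4 to 8 in knockout when single arrays were left out, and was 0 in wild type with sex pattern as a covariate and 5 in knockout on the male-pattern arrays alone. Over all 12568 genes, 15 were higher in wild type with that covariate and 943 in knockout on those arrays. Of 8 genes of innate lymphoid cells, in which NFIL3 acts, 4 were tested. In each genotype 2 were higher, against 15.8% of all genes in wild type and 14% in knockout. These were Il7r and Gata3, which T cells also express. Gata3 exceeded the array median on 4 arrays, all irradiated, and so entered the test only through the group where it is high, and nothing is read from its call. The count ran from 1 to 3 in each genotype when single arrays were left out, and was 0 in wild type with sex pattern as a covariate and 1 in knockout on the male-pattern arrays alone.

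The genes whose pattern lay nearest to that of Dbp were found by the root mean square difference of log2 values over the 10 arrays, each gene centred on its own mean. Among the clock genes described here the nearest was Per3 at 0.74, followed by Nr1d2 at 0.85, Tef at 0.89, Ciart at 0.90 and Nr1d1 at 0.92, while Per2 at 1.23 and Per1 at 1.40 stood farther off. Outside them the nearest were Sh3d21 at 0.88, Slc25a34 at 0.89, Abcb1a and Fam189a2 at 0.90 and Tns4 at 0.91. Nearest to Arntl stood Ap3m2 at 0.15, Col6a2 at 0.20, and Slco2b1, Slc43a3 and Tgm2 at 0.21. This used the Arntl probe set that was higher after irradiation, and the second one was not compared. Ap3m2 averaged 6.17 in unirradiated wild type, below the lowest array median of 6.64. All genes named here share the direction of the irradiation difference of the gene they stand near. The part of that difference in the distances was not computed.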

How the data were processed

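Total RNA from 10 samples of distal colorectum was labelled and hybridised to Affymetrix arrays, 1 per sample, and grouped by the genotype and irradiation in the labels. The authors computed the signals with MAS5, per the submitters' processing notes. The sources used here do not give its version. The deposited values were taken as log2 because, once made linear, every array had a mean of 500 after trimming 2% from each tail. They were used unchanged. No detection calls were used, and MAS5 spreads dim signals widely. Precision is limited by how few arrays there were.

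Of 45101 probe sets, 64 were controls and 34945 had 1 gene. Each of the 18193 genes was represented by its brightest probe set, and the 12568 that exceeded the array median on 2 or more arrays were tested. The fit used limma 3.58.1 (R 4.3.3). All 10 arrays entered it with a mean for each group, leaving 6 residual degrees of freedom, and the variance prior was allowed to depend on signal. P-values were adjusted by Benjamini-Hochberg over all genes tested, at 0.05. The fit was tested on simulated data. Motifs were searched on both strands.

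The 10 genes, the gene lists and the tests were chosen with earlier results of these data known. Named were the 10 genes, Pdgfc and Xist, up to 6 genes of the lists of other clock genes, clock output genes and glucocorticoid-induced genes with the smallest p past the threshold, and the 5 nearest to Dbp and to Arntl; Csnk1d, Npas2, Il7r, Gata3, Clock, Cry1, Hlf, Elovl3, Nr1i3, Slc2a5 and Egr2 were added after their values were seen. Alternatives were quantile normalization, 16 or 64 added to the linear signal, other filters, no trend, array weights, all probe sets or their mean, a replicate block, fits of only the groups compared, sex pattern as a covariate, male-pattern arrays only, and leaving out each array. Applying these settings to the counts of clock output, glucocorticoid-induced, immediate early and innate lymphoid genes was chosen after seeing the data.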

Additional observations from a re-analysis of the deposited data

How the results depend on the processing

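The irradiation differences of the 10 genes kept their sign in all 450 values recomputed under 23 alternative settings, and 19 moved by more than the spread between replicates. Their largest moves come from the pseudocount for the dim genes, from the mean of probe sets for Arntl and from sex pattern as a covariate in wild type. The median of the 8 Dbp-phase genes ran from -2.01 to -1.50 in wild type and from -2.18 to -2.00 in knockout when single arrays were left out. The genotype comparison without irradiation called 0 of the 10 genes, in place of 1, with array weights, the male-pattern arrays only, no filter, only the groups compared, a pseudocount of 16 or of 64, the replicate block or sex pattern as a covariate, and 0 to 1 without single arrays. The other clock genes called in knockout numbered 2 of 20 with the male-pattern arrays only, in place of 6, and 0 to 6 without single arrays. In wild type they numbered 2 with only the groups compared, 1 with the replicate block and 0 with sex pattern as a covariate, in place of 4, and 1 to 5 without single arrays. Over all 12568 genes, the male-pattern arrays gave 943 higher and 409 lower calls in knockout. In wild type there were 1742 and 974 with only the groups compared, and 1410 and 585 with the replicate block. Sex pattern as a covariate gave 15 and 1 there. Where an alternative left 1 array in a group, its spread was taken to equal that of the remaining groups. Same-numbered samples deviated together with correlations of only -0.20 to 0.16. With 2 or 3 arrays per group these cannot decide whether the numbers pair samples. The replicate block gave an adjusted p of 0.10 for Nfil3 without irradiation (limma). The causes of these moves were not tested. With 2 or 3 arrays per group, and dim signals for Nfil3, Ciart and Nr1d1, the sizes of their differences are imprecise.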
